A study of Mus musculus with 20 samples.

Results

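The net state of bone marrow-derived dendritic cells (BMDCs) that received both a bromodomain inhibitor and an immune stimulus was compared with the untreated baseline. The comparison set the 5 libraries labelled iBET IC against the 5 labelled DMSO Ova, so that 10 of the 20 libraries of the series entered it, and each of the 5 mice (A to E) gave 1 library to either side. The other 10 libraries, iBET Ova and DMSO IC, gave the effect of each agent alone and served to place every gene as cancelled, added up or dominated by one agent. BMDCs, which the labels describe as sorted into lysis buffer, were grown from the bone marrow of wild-type C57BL/6 mice over 8 days in GM-CSF (40 ng/mL), and the exposure lasted 4 hours. DMSO Ova cells received the solvent and soluble ovalbumin. DMSO IC cells received the solvent and insoluble immune complexes (IC), which are ovalbumin opsonised with rabbit IgG against ovalbumin. iBET Ova and iBET IC cells received I-BET151 (iBET) at 3.3 µM with ovalbumin or with IC. The methods place iBET before the stimulus whereas the labels describe simultaneous treatment, and the labels give 5% DMSO for the solvent groups without stating the DMSO content of the iBET groups, so an effect of the solvent cannot be told apart from one of iBET.

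BET proteins read acetylated histones through paired bromodomains and help to release RNA polymerase II into elongation, in part by bringing in the kinase complex P-TEFb. I-BET151 fills the acetyl-lysine pocket and displaces them from chromatin. IgG immune complexes cross-link Fcγ receptors on dendritic cells, which signal through ITAM motifs and the kinase SYK to NF-κB, AP-1 and calcium-dependent factors. That signal drives cytokine and chemokine genes, many of which are also sensitive to BET inhibition.

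Total counts ranged from 16447491 to 26940397 in DMSO Ova and from 18855680 to 29245150 in iBET IC, and Rn45s, the ribosomal RNA precursor, made up 2.69% to 8.61% of each library. Summed CPM (counts scaled to library size) of the 9 dendritic cell markers lay between 4472 and 7031 in DMSO Ova and between 5583 and 9052 in iBET IC, although single markers moved in both directions (4 higher, among them Cd74 and H2-Ab1, and 5 lower, among them Flt3 and Ccr7). Macrophage or monocyte markers summed to 10310 to 17880 CPM in DMSO Ova and to 12610 to 20800 in iBET IC. Both sums were thus high, but such a sum can rest largely on a single gene. How far the macrophage or monocyte sum does so is not given here. Within the dendritic cell sum, Cd74 alone stood at 1859 to 3564 CPM in DMSO Ova, and Flt3 at 1.01 to 4.94. Neutrophil markers summed to 489.8 to 880 CPM in DMSO Ova and 473.3 to 940.3 in iBET IC, mast cell, basophil or eosinophil markers to 60.59 to 151.3 and 58.67 to 142.8, and erythroid markers to 1.067 to 13.14 and 0.9621 to 15.85. T or NK cell and B cell markers summed to under 1 CPM in every library. In bulk RNA, fewer cells of a type and less RNA per cell cannot be told apart. Mice A and B had lower baseline levels of the dendritic cell genes Ciita, H2-Aa and Cd83 than mice C, D and E. The mouse was kept as a block because the comparison pairs libraries by mouse. All values below are relative to the TMM scale, since no added RNA standard gives absolute amounts. Without TMM the median net log2 fold change of all genes moved from -0.02 to -0.17.

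After removal of each mouse's mean, the first component of the log2 CPM values held 73.7% of the variance and separated the iBET libraries from the solvent libraries, while the second held 10.5% and separated IC from Ova. The iBET IC libraries lay between 39.72 and 44.42 on the first component, where the iBET Ova libraries lay between 44.05 and 46.42. On the second they lay between 11.22 and 18.28, where the DMSO IC libraries lay between 13.85 and 20.69. The net state therefore differed from baseline along both axes, and the distance along the axis of the drug was the longer one.

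**Figure D1:**
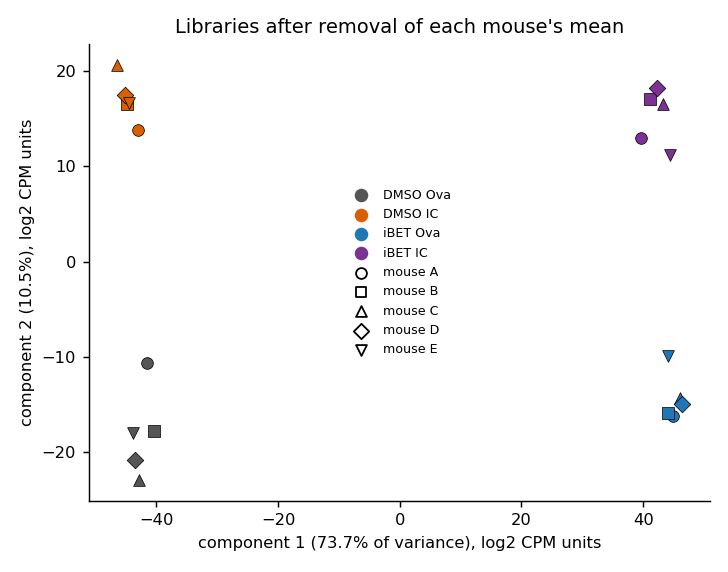
Principal components of log2 CPM over the genes tested after subtraction of each mouse's mean, component 1 against component 2, with 1 point per library, colour for the group and shape for the mouse. The iBET IC libraries sit on the iBET side (39.72 to 44.42) of component 1 and on the IC side (11.22 to 18.28) of component 2.

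Between iBET IC and DMSO Ova, 8977 of 12465 genes were called (72%), of which 4396 were higher (35.3%) and 4581 lower (36.8%). With library size alone in place of TMM, 2951 were higher and 5895 lower. Of the genes called, 607 rose and 1442 fell by at least 1 on the log2 scale. iBET alone moved 8560 genes (68.7%) and IC alone 4755 (38.1%) from the same baseline. The 3 comparisons share the DMSO Ova libraries, so their values are set side by side and no overlap between them was tested.

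The 6 largest net falls among genes past a mean of 100 counts are given first. Gpr35, a G protein-coupled receptor of myeloid and gut cells, stood at 26.9, 33.4, 43.3, 56.1 and 45.2 CPM in the DMSO Ova libraries of mice A to E and at 0.629, 0.757, 0.517, 1 and 0.89 CPM in iBET IC. The groups did not overlap, and the net log2 fold change was -5.71 ± 0.15 (SE, n = 5 mice; adjusted p = 9.49e-16), to which IC alone contributed -0.22 ± 0.10 (adjusted p = 0.0776). Ciita, the master activator of MHC class II genes, stood at 16.8, 21.6, 54.1, 80.5 and 46.2 CPM and went to 0.666, 0.606, 1.29, 1.38 and 1.33 CPM, a net change of -5.31 ± 0.14. Every iBET IC library was below every baseline library although the baseline itself varied between mice. Ccr2, the receptor that draws monocytes to CCL2, had a net change of -4.92, the CD30 ligand gene Tnfsf8 one of -4.90, the adhesion molecule gene Ceacam15 one of -4.85 and the glycosyltransferase gene Galnt9 one of -4.76. None of the 6 overlapped baseline, which their choice as the largest falls favours. The share of all genes without overlap is not given. A lack of overlap, here and below, therefore describes single genes and sets no group apart. The same direction of the net change in 5 of 5 mice was a condition of the naming rule for these genes. It was also one for the dominant and adding genes that the rule takes below.

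Of the largest net rises past the same mean, 5 are described here. The inducible chaperone gene Hspa1a stood at 1.58, 0.711, 0.612, 1.02 and 0.41 CPM at baseline and at 12.9, 7.88, 16.7, 17.5 and 4.95 CPM in iBET IC, with a net log2 fold change of 3.69 ± 0.45. The metallothionein genes Mt2 (35.2 ± 9.14 CPM at baseline and 374 ± 125 CPM in iBET IC, SD, n = 5, and a net change of 3.39 ± 0.11) and Mt1 (net 3.08 ± 0.09) were also called higher with iBET alone (2.94 and 2.43) and with IC alone (0.54 and 0.62). Bzrap1, a synaptic scaffold gene (net 3.18 ± 0.18) and Neto2, an auxiliary subunit of kainate receptors (2.98 ± 0.15), followed, each with no overlap between groups. The IC effect on Bzrap1 (0.47, adjusted p = 0.0457) was called only without mouse B among the fits that left out a mouse, whereas its net call held in each of those fits.

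Genes for which iBET alone and IC alone were both called fell into classes by the signs of both effects and of the net change. Opposite single effects with no called net change (cancelling) were found in 547 genes (4.39%). Opposite effects with a net change in the direction of iBET (iBET-dominant) were found in 898 (7.2%), and with a net change in the direction of IC (IC-dominant) in 117 (0.939%). Single effects of one sign with a net change of that sign (adding) were found in 831 higher (6.67%) and 1056 lower (8.47%) genes, and 7 further genes had effects of one sign without a called net change. The adding rule does not ask that the net change exceed both single effects. By its estimate it did so in 765 of the 831 higher and 930 of the 1056 lower genes. Median absolute single effects in the IC-dominant class were 0.264 for iBET and 0.582 for IC, and in the iBET-dominant class 0.716 and 0.309. The class rules favour this order. Leaving out each mouse in turn, 201 of the 547 cancelling, 443 of the 898 iBET-dominant, 41 of the 117 IC-dominant, 440 of the 831 adding higher and 586 of the 1056 adding lower genes kept their class in all 5 fits. The class of a single gene is therefore given below with the fits in which it was lost, and where none is named it was kept in all 5. On library size alone, 246 cancelling, 533 iBET-dominant, 55 IC-dominant and 347 adding higher genes kept their class, as did all 1056 adding lower genes.

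**Figure D2:**
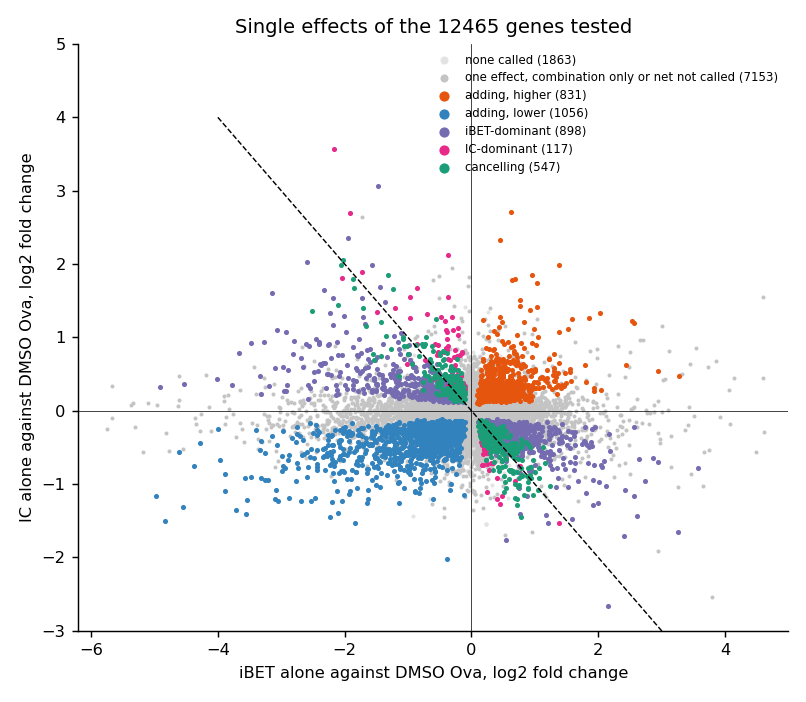
Log2 fold change of iBET alone (horizontal) against that of IC alone (vertical), both against DMSO Ova, for each gene tested, coloured by class with the number of genes in each, and with 7 genes outside the range drawn. On the dashed line both effects are equal and opposite, and the 547 cancelling genes lie along it while the 898 iBET-dominant genes lie on the side of larger iBET effects.

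Small net medians follow from the class rule in cancelling genes, as their net change is not called. iBET lowered and IC raised 243 of them, with median effects of -0.28 and 0.30 and a median net change of -0.05, and 304 had the reverse pattern, with medians of 0.35, -0.38 and 0.04. A call that is missing does not show equality, so the interval of the net change was used as well: in 218 and 266 of these genes the 95% interval lay within 0.5 of 0 on the log2 scale. Slc7a11, the cystine transporter that feeds glutathione synthesis, was the most abundant of the 6 that the naming rule took from this class. It stood at 694, 446, 431, 376 and 466 CPM in DMSO Ova, rose to 1541, 1487, 1331, 1199 and 992 with IC, and went down to 155, 154, 110, 61.2 and 92.9 with iBET. With both agents it stood at 427, 448, 500, 363 and 336 CPM. Neither single-agent group overlapped baseline, whereas the iBET IC libraries did, and the net log2 fold change of -0.20 had an interval from -0.49 to 0.08. Bhlhe41, a circadian repressor of the bHLH family, showed the same course, from 18.8 to 51.3 CPM at baseline to 89.3 to 148 with IC, 4.9 to 8.78 with iBET and 19.3 to 38.3 with both. Its single effects were 1.99 ± 0.11 and -2.05 ± 0.12 against a net change of -0.16 ± 0.11. In mice A and B only, Bhlhe41 was called lower (-0.36, adjusted p = 0.0464), and in mice C, D and E it was at 0.04.

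The chemokine Ccl3, a ligand of CCR1, stood at 52.6, 22.4, 24, 14.5 and 21.4 CPM at baseline and at 29.3, 24.5, 27.6, 14.9 and 21.6 CPM in iBET IC, between 40.9 and 91.3 CPM with IC alone and between 4.05 and 12.2 with iBET alone. The net change was -0.13 with an interval from -0.41 to 0.14, and 4 of 5 mice were slightly higher while mouse A was lower. Rragd, which encodes a Rag GTPase of the lysosomal mTORC1 arm (net 0.17 ± 0.11), and Olr1, the receptor of oxidised LDL (net -0.17 ± 0.08), completed the genes that iBET lowered and IC raised. Olr1 was called lower, at -0.27, when mouse C was left out. Mir22hg, the host transcript of miR-22, had the reverse pattern: 11.5 to 20 CPM at baseline, 22.4 to 38.3 with iBET, 5.87 to 10.1 with IC and 12.8 to 20.4 with both, for a net change of -0.03 ± 0.05. On library size alone Slc7a11, Bhlhe41, Olr1 and Mir22hg were called lower (-0.36, -0.32, -0.33 and -0.19), so their place at baseline holds on the TMM scale.

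IC dominated over iBET in 117 genes, in 74 of which IC was the agent that raised the level. Several encode products of activated myeloid cells. Irg1 (Acod1 in RefSeq; chromosome 14, 103047012 to 103056573, GRCm38.p6), which makes itaconate, stood at 29.6, 11.3, 15, 14.4 and 11.2 CPM at baseline, at 226, 194, 241, 146 and 141 with IC, and at 3.47, 3.9, 4.43, 1.98 and 3.98 with iBET. In iBET IC it stood at 53.4, 34.6, 49.2, 47.9 and 25 CPM. Each mouse was above its own baseline, although the library of mouse E (25) lay below the baseline of mouse A (29.6). The single effects were 3.57 ± 0.18 and -2.17 ± 0.22, their sum 1.40 and the net change 1.38 ± 0.18 (adjusted p = 1.22e-06).

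Among the interleukin-1 genes, Il1a (chromosome 2, 129299609 to 129310186) went from 29.6, 24.7, 20.2, 18.3 and 20.7 CPM to 35.4, 37.3, 36.2, 23.5 and 25.4, a net change of 0.46 ± 0.10. Il1b (chromosome 2, 129364569 to 129371164) went from 13.6, 6.46, 5.65, 11.9 and 12.4 CPM to 11.6, 14, 17.4, 16.1 and 24, a net change of 0.68 ± 0.23 (adjusted p = 0.0122), higher in 4 of 5 mice. Without mouse C it was 0.50 with an adjusted p of 0.0742. Inhba (chromosome 13, 16004256 to 16031609), which encodes the activin A subunit, had single effects of -1.91 and 2.69 and a net change of 0.49 ± 0.17, lost without mouse C (adjusted p = 0.0518). The neutrophil chemokine gene Cxcl2 stood near its IC level, at 26.9 to 65.8 CPM with IC alone, 23.5 to 65.1 with both and 9.46 to 38.4 at baseline, a net change of 1.18 ± 0.18. Clec4e, the receptor MINCLE (0.56 ± 0.13), and the stress cytokine gene Gdf15 (0.95 ± 0.12) were also higher, in 5 of 5 mice as the naming rule requires. Without the mouse as a block, the net changes of Clec4e (0.50, adjusted p = 0.151), Il1a (0.48, adjusted p = 0.0585) and Inhba (0.52, adjusted p = 0.223) were not called. Txnip, the thioredoxin-binding arrestin that restrains glucose uptake, ran the other way. It stood at 1152, 1233, 1014, 1051 and 1184 CPM at baseline, between 2721 and 3169 with iBET, between 346 and 468 with IC and at 917, 1079, 680, 761 and 747 with both, a net change of -0.44 ± 0.06.

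The promoters of 4 IC-dominant cytokine and metabolic genes that rose with IC and fell with iBET are shown, each of which holds the letters TATAAA. They do not stand for the class. Among the other named IC-dominant genes with these directions, Clec4e held a match. Cxcl2, Gdf15, Maff, Gclm, H2-Aa and H2-Eb1 held none at the first listed start. Sequences are from RefSeq (GRCm38.p6), 250 bases before to 50 after the start of transcription in the direction of the gene, and capitals mark the letters TATAAA, searched on both strands.
Irg1, chr14:103046762-103047061, plus strand: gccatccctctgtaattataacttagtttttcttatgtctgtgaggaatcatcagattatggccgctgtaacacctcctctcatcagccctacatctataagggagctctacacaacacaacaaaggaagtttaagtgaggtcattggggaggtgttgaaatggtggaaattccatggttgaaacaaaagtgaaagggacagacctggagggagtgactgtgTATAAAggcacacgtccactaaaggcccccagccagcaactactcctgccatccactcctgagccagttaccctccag
Il1a, chr2:129309923-129310222, minus strand: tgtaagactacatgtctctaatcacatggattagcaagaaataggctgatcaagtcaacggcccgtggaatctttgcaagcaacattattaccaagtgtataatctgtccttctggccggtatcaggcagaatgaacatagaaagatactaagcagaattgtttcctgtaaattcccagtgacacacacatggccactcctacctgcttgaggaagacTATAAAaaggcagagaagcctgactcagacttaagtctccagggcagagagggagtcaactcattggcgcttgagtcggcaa
Il1b, chr2:129371090-129371389, minus strand: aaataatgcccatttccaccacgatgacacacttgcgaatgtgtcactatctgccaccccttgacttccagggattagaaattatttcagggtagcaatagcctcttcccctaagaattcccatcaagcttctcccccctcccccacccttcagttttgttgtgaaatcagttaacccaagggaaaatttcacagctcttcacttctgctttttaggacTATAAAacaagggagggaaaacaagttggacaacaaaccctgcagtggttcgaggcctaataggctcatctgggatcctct
Inhba, chr13:16011601-16011900, plus strand: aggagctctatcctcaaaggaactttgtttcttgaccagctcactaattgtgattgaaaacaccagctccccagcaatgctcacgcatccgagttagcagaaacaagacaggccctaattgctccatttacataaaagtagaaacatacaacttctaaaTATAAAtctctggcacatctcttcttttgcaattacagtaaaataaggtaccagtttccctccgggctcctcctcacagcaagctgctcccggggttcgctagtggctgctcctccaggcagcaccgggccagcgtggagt
The match began 28, 32 and 31 bases before the start in Irg1, Il1a and Il1b, and 91 bases before it in Inhba. In Il1a, Il1b and Inhba the listed start lies inside the span of the gene. A promoter was found for 98 of the 117 IC-dominant genes, and 11 of these (11.2%) held TATAAA, against 14.2% of the 27025 promoters of the table and 7.25% of those of the 9811 tested genes with an entry.

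iBET dominated in 898 opposed genes, of which 415 were lowered by iBET and raised by IC, with median single effects of -0.81 and 0.31 and a median net change of -0.57. The remaining 483 were raised by iBET, with medians of 0.67, -0.31 and 0.47. Il1f9, the epithelial and myeloid cytokine IL-36γ, stood at 20.5, 6.76, 7.96, 6.2 and 9.54 CPM at baseline and between 20.9 and 35.3 CPM with IC. It stood between 0.315 and 1.98 CPM with iBET and at 2.48, 2.39, 2.95, 1.62 and 2.78 CPM with both. The groups did not overlap and the net change was -2.03 ± 0.22 (adjusted p = 1.46e-07). The neutrophil chemokine gene Cxcl3 was raised by IC to 85.6 to 179 CPM and was 7.01 to 19.7 CPM with both agents, against 14.2 to 71.5 at baseline (net -1.07 ± 0.23). Each mouse was below its own baseline, while the baseline of mouse D (14.2) lay within the range of iBET IC.

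Abhd15, a hydrolase gene of insulin signalling in fat, was the gene that iBET raised among the 6 taken from this class. It stood at 8.95, 8.36, 7.3, 7.21 and 6.62 CPM at baseline, between 2.1 and 3.37 with IC, between 43.6 and 56.6 with iBET and at 38.7, 38.6, 32.4, 32 and 29.8 with both. The net change of 2.16 ± 0.08 exceeded the sum of the single effects (1.18), and the departure of 0.97 was itself called (adjusted p = 0.000442). Lrrc32, which encodes the TGF-β docking protein GARP, had a net change of -0.77 ± 0.12. Ccl4, a chemokine related to Ccl3, had one of -0.66 ± 0.20, which was -0.37 (adjusted p = 0.0655) without mouse A. Met, the receptor of hepatocyte growth factor, was all but back at baseline (50.2, 33.7, 50.1, 48.8 and 49.2 CPM against 44.7, 30.9, 41, 41.6 and 37.9), and its net change of -0.24 ± 0.08 was not called without mouse C (-0.21) or E (-0.21).

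**Figure D3:**
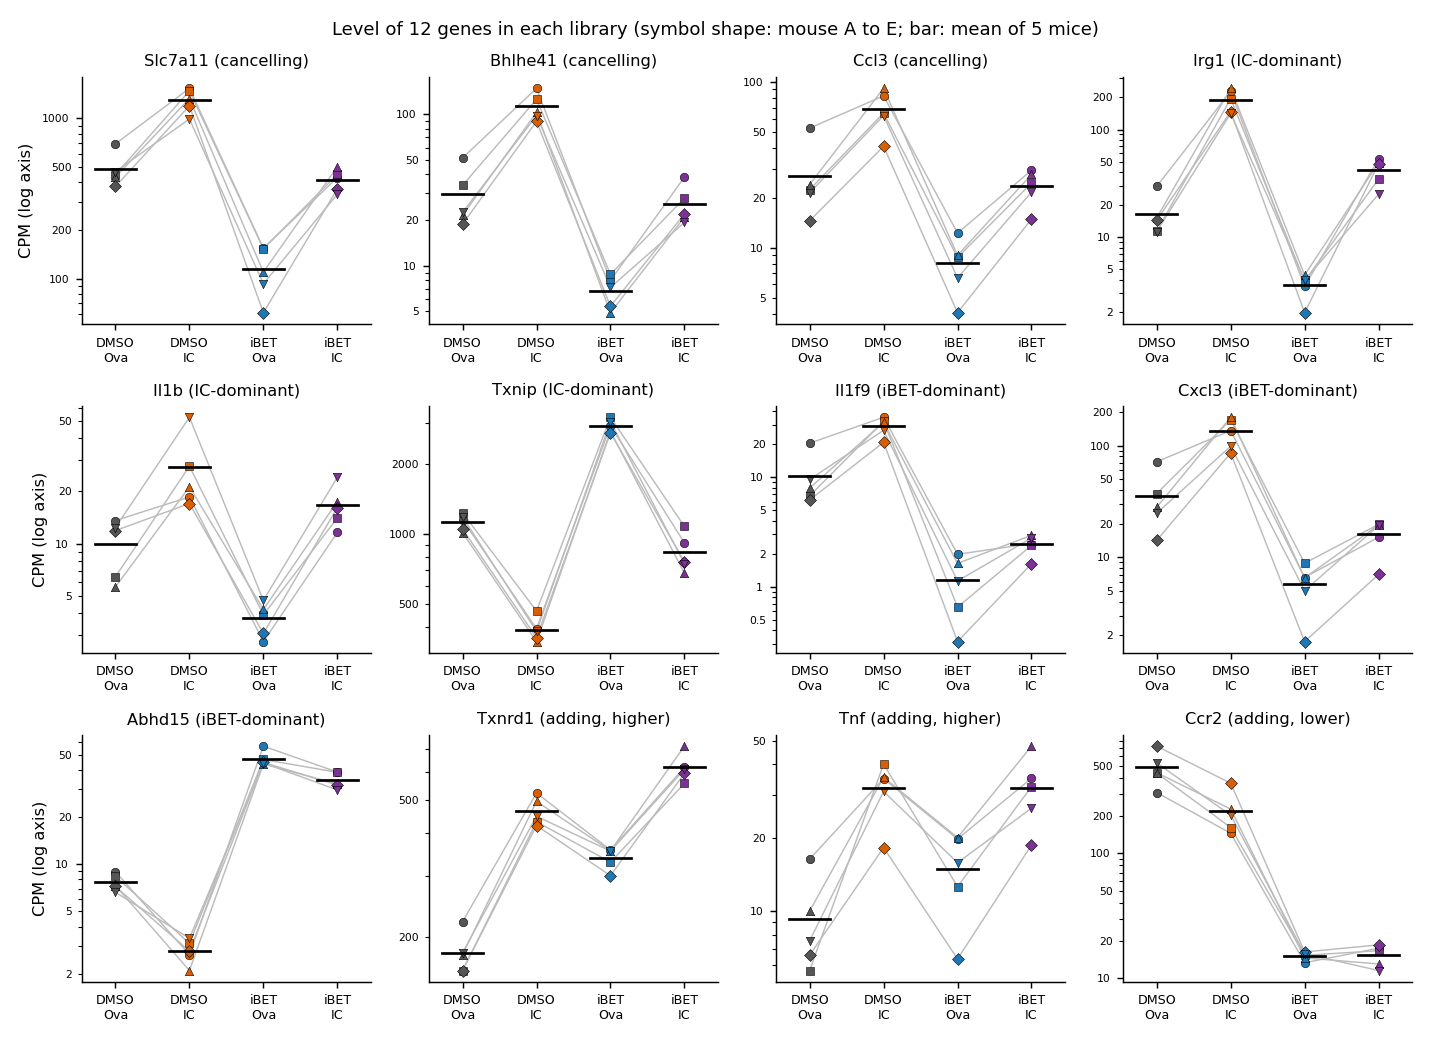
CPM on a log axis in each library for 12 genes in the 4 groups, with grey lines joining the libraries of a mouse, symbol shape for the mouse and a black bar for the mean of 5 mice. Slc7a11, Bhlhe41 and Ccl3 overlap their baseline range with both agents, Irg1 (25 to 53.4 CPM) is above its own baseline in each mouse, and Il1f9 (1.62 to 2.95 CPM) is below the baseline range.

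Adding genes that rose numbered 831, with a median net change of 0.58 against a median sum of both effects of 0.68. The 6 named by the rule encode a growth factor, a receptor, a chemokine, a transcription factor, an RNA-tailing enzyme and a reductase. Hbegf, an EGF receptor ligand, stood at 1.74, 0.415, 2.17, 0.735 and 2 CPM at baseline and at 6.37, 9.96, 20.8, 6.58 and 9.68 CPM with both agents, without overlap (net 2.86 ± 0.23). Txnrd1, thioredoxin reductase, stood at 221, 160, 178, 160 and 180 CPM at baseline. It stood at 523, 432, 494, 420 and 447 CPM with IC, at 357, 329, 355, 301 and 355 with iBET and at 620, 557, 714, 596 and 612 with both, and each group lay above the one before it in the order baseline, iBET, IC, both. The monocyte chemokine gene Ccl2 went from 11.2, 4.68, 5.7, 1.72 and 3.44 CPM to 20.9, 22.4, 29, 8.58 and 12.7, which rose in each mouse with overlap between mice (net 1.84 ± 0.20). Fam46c, a poly(A) polymerase gene (2.19 ± 0.11), the transcription factor gene Ets2 (1.62 ± 0.08) and the reelin receptor gene Lrp8 (1.52 ± 0.11) stood apart from baseline.

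The net rise fell short of the sum for Lrp8 (2.78 expected from the sum, departure -1.26, adjusted p = 0.000399), Ets2 (departure -0.48, adjusted p = 0.0357) and Txnrd1 (-0.50, adjusted p = 0.00721). Lrp8 with both agents (15 to 22.9 CPM) overlapped its level with IC alone (17.2 to 26.6 CPM). Srxn1, the sulfiredoxin gene, is an adding gene whose promoter holds a repeated AP-1 motif, TGANTCA, and it is shown for that reason, with the matches in capitals.
Srxn1, chr2:152105274-152105573, plus strand: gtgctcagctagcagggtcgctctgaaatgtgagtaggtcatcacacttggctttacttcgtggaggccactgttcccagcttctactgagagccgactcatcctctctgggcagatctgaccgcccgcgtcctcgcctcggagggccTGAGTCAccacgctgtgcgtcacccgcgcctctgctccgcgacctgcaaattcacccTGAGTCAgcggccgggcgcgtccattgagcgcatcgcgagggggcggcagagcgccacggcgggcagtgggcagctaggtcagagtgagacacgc
The matches begin 102 and 45 bases before the start. TGANTCA reads the same on both strands and was present in 28 of the 678 promoters found for adding higher genes (4.13%), against 4.99% of those of the tested genes and 7.93% of all promoters of the table. Srxn1 stood at 112, 83.8, 72.9, 73.8 and 75.1 CPM at baseline, between 180 and 236 with IC, between 92.8 and 138 with iBET and at 357, 290, 414, 353 and 312 with both.

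Adding genes that fell numbered 1056, with a median net change of -0.97 against a median sum of -1.07. Ccr2 was the most abundant of the 6 that the naming rule took here, at 306, 439, 442, 721 and 529 CPM at baseline, 145, 161, 226, 364 and 202 with IC, and 13.3, 15.2, 14.5, 16.2 and 15.7 with iBET. With both agents it stood at 17.4, 16.6, 13, 18.5 and 11.5 CPM, a range that includes that with iBET alone, and the departure of 1.22 from the sum was called (adjusted p = 0.0144). Ptpn22, the phosphatase of antigen receptor signalling linked to autoimmunity, went from 14.1, 14.5, 22.4, 22.1 and 24.2 CPM to 0.777, 1.1, 0.828, 1 and 1.5, a net change of -4.19 ± 0.12. Il1rl2, the IL-36 receptor gene, had a net change of -3.03, the cytoskeletal gene Nhsl2 one of -2.59, the diacylglycerol kinase gene Dgkg one of -2.27 and the tetraspanin gene Tspan32 one of -1.91. For these 4 and Ptpn22 no departure was called, and none of the 6 overlapped baseline.

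**Figure D4:**
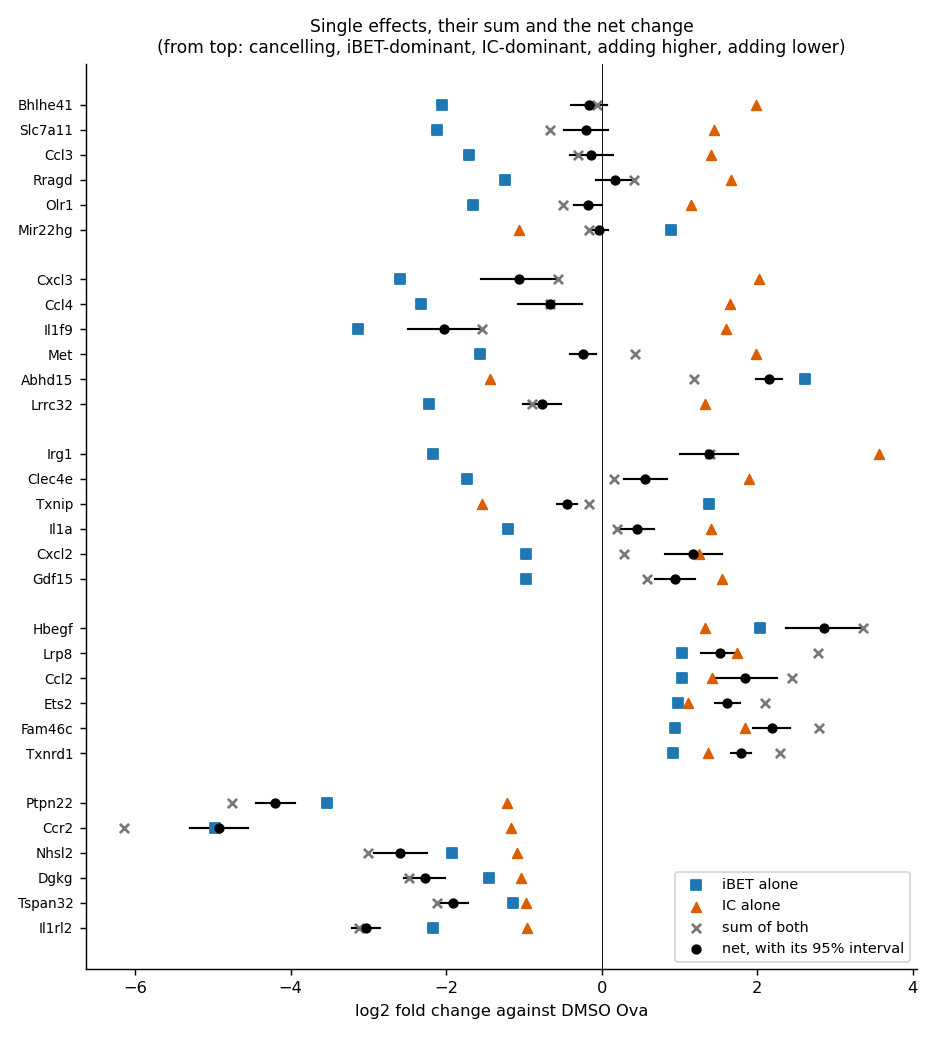
Log2 fold changes against DMSO Ova of the genes named by class: iBET alone (squares), IC alone (triangles), their sum (crosses) and the net change (dots, with its 95% interval from edgeR). The net changes of the first 6 genes, the cancelling ones, lie between -0.20 and 0.17, Abhd15 (net 2.16) lies above its sum of 1.18, and Lrp8 (net 1.52) lies below its sum of 2.78.

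Many genes were called for one agent and not for the other, although a missing call does not show that the other agent had no effect. iBET alone was called with IC alone not called in 4476 genes that kept the change (35.9%) and in 628 that did not (5.04%). IC alone was called without iBET in 844 genes that kept the change (6.77%), in 447 that were no longer called (3.59%) and in 8 that turned. Of the genes no longer called, Slc3a2, the heavy chain that partners the transporter SLC7A11, stood at 359, 261, 303, 255 and 271 CPM at baseline and at 438, 476, 443, 389 and 422 with IC. With both agents it stood at 284, 313, 314, 273 and 288 CPM (net 0.03 ± 0.07), while iBET alone gave -0.12 (adjusted p = 0.124). Its departure of -0.43 was called (adjusted p = 0.0451). The ribosome assembly gene Rrs1 (IC 0.57, net 0.13), the zinc finger gene Zfp950 (IC -0.75, net -0.26) and the sulfurtransferase gene Tst (IC 1.23, net 0.22) made up the named set. Departures were called in 3 of the 447 genes, and not in Rrs1, Zfp950 or Tst (adjusted p = 0.292, 0.886 and 0.103). Zfp950 still fell with IC in the presence of iBET (-0.59, adjusted p = 0.00997), so its missing net call is no loss of the IC response. Tst was called higher in mice C, D and E alone (0.62), and Zfp950 left this class without mouse D and was called lower on library size alone (-0.42).

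In 743 genes (5.96%) only the combination was called, with a median absolute net change of 0.29. Among the named ones, the DNA primase gene Prim1 went from 7.47, 6.28, 7.06, 5.29 and 7.49 CPM to 4.33, 4.58, 4.09, 4.77 and 2.61, a net change of -0.72 ± 0.13. The nuclease gene Gen1, which resolves recombination junctions, went from 5.39 to 7.29 CPM at baseline to 2.77 to 4.76 (net -0.67 ± 0.10). Neither Prim1 nor Gen1 overlapped baseline. Prr12 (-0.72 ± 0.21) and the brain creatine kinase gene Ckb (0.65 ± 0.15) overlapped it. Departure from the sum was not called for any of the 4. It was called in 2 of the 743 genes of this class, where 0.818% of all genes departed. Prim1 left the class without mouse D, Prr12 without mouse A and Ckb without mouse B.

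Across all genes the net change differed from the sum of the single effects in 102 genes (0.818%), 50 above it and 52 below. Without the mouse as a replicate block 5 genes departed from the sum, and with DESeq2 183 did. Leaving out 1 mouse gave 14 (mouse D) to 61 (mouse E) departures. Of the departures, 22 were in adding higher genes, each below the sum, and 27 in adding lower genes, of which 24 were above it. Klf10, the TGF-β-inducible repressor, departed in the other sense. It stood at 118, 129, 85.9, 101 and 96.8 CPM at baseline and at 118, 125, 73, 102 and 89.6 with iBET alone. It was at 52.3, 55, 49.7, 44.9 and 46.4 CPM with IC and at 29.5, 26.7, 19.5, 19.9 and 20.8 with both. iBET alone gave -0.07 ± 0.07, IC alone -1.08 ± 0.07 and both -2.19 ± 0.08, with a departure of -1.04 (adjusted p = 8.73e-05). The lipid desaturase gene Scd2 (net -1.33, departure -0.34, adjusted p = 0.0144) and the IL-1 antagonist gene Il1rn (sum 0.02, net -0.63, adjusted p = 0.0234) were likewise lower than the sum.

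With the combination, cytokine and chemokine genes moved in both directions, as the tested genes in general did. Of 14 inflammatory cytokine genes tested, 6 were higher and 8 lower (median net -0.53, against -0.02 for all genes). Over all genes 35.3% were higher and 36.8% lower, the shares beside which each gene list and marker set below is to be read. Tnf was an adding gene: 16.3, 5.69, 9.98, 6.58 and 7.54 CPM at baseline became 35, 32.4, 47.5, 18.6 and 26.4, without overlap. With IC alone it stood at 34.9, 40.1, 35.4, 18.2 and 30.9 CPM. Set against DMSO IC, iBET IC gave -0.02 (adjusted p = 0.919), so no rise beyond IC alone was called. iBET alone raised it (0.64 ± 0.19, adjusted p = 0.00489) in 4 of 5 mice. The class of Tnf was lost without the mouse as a block. Il6 (net -2.62 ± 0.14), Il12b, which encodes the IL-12 and IL-23 subunit p40 (-1.02 ± 0.14), and Il1rn, which stood at 118 to 238 CPM at baseline and 87 to 116 with both agents, were iBET-dominant. The class of Il6 rested on a small IC effect (0.33) that was not called without mouse B, C or D. None of the 14 was cancelled, where 4.39% of all genes were, a share at which a list of this size may well hold none.

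Of 18 chemokine ligand genes 9 were higher and 5 lower (median 0.18), or 5 higher and 6 lower on library size alone (median 0.02). With IC alone 15 of the 18 rose, where 18.3% of all genes did. Of the 18, 4 cancelled (Ccl3, Ppbp, Cxcl1 and Ccl9), where 4.39% of all genes did. Ccl9, a CCR1 ligand, stood at 1965, 1654, 1060, 1161 and 1333 CPM at baseline and at 1859, 1618, 1212, 1276 and 1132 CPM with both agents (net 0.00 with an interval from -0.14 to 0.13). Cxcl1 was near 1 CPM and its interval, from -0.58 to 0.81, leaves its place undetermined. The Th2 chemokine gene Ccl17 kept its rise (0.46 ± 0.07), whereas its relative Ccl22 (-0.46 ± 0.07) and the membrane-bound chemokine gene Cxcl16 (-1.51 ± 0.07) were iBET-dominant.

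Of 16 chemoattractant receptor genes tested, none was called higher and 15 were lower (median -2.21), which compares with 36.8% of all genes called lower, and all 16 fell with iBET alone, where 35.2% of all genes did. Ccr1 (-2.66 ± 0.09), a receptor of CCL3, and the formyl peptide receptor gene Fpr1 (-3.69 ± 0.17) were below baseline without overlap. The IC effect on Fpr1 was not called without mouse B. Ccr7, which guides dendritic cells to lymph nodes, was at -0.26 ± 0.09 (adjusted p = 0.0161) and it left its class in each fit that left out a mouse. The net call was lost without mouse A (-0.18) or C (-0.26). Ccrl2 was the one not called, at -0.23 ± 0.19, with -0.93 in mice A and B and 0.36 in mice C, D and E.

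Of 22 genes of Fc receptors and proximal signalling, 2 were higher and 18 lower (median -1.07), where 36.8% of all genes were lower. The activating receptor genes Fcgr1 (-2.29 ± 0.07) and Fcgr3 (-1.08 ± 0.07) and the inhibitory Fcgr2b (-1.36 ± 0.08) fell without overlap. The common γ chain gene Fcer1g rose slightly (0.34 ± 0.05), as an adding gene that lost its class without mouse C, D or E. Syk fell by 0.57, less than with iBET alone (-0.97), and IC alone raised it (0.35).

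NF-κB subunits and inhibitors (19 tested) had 5 higher and 10 lower genes (median -0.31). The feedback inhibitor gene Nfkbia was higher with both agents (0.99 ± 0.11) than with IC alone (0.57 ± 0.11), and this difference between iBET IC and DMSO IC was called (0.42, adjusted p = 0.00251). The deubiquitinase gene Tnfaip3 was iBET-dominant (-0.69 ± 0.11), and its partner Tnip1 cancelled, with single effects of -0.63 and 0.67 and a net change of -0.01 ± 0.06. Of 27 early response factor genes, 14 were higher and 6 lower (median 0.30), or 10 and 8 on library size alone (median 0.14), where 35.3% of all genes were higher and 36.8% lower. Jun was adding (0.83 ± 0.09), Maff was higher (0.61 ± 0.14, a class kept only without mouse C), and Myc, raised by iBET (0.75) and lowered by IC (-0.51), had an interval from -0.52 to 0.00 and was called lower without mouse B (-0.36).

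Of 12 MHC class II presentation genes 4 were higher and 5 lower (median 0.01), or 2 higher and 6 lower on library size alone (median -0.15). The shares of all genes were 35.3% higher and 36.8% lower. While Ciita fell to near 1 CPM, Cd74, the invariant chain, rose (0.50 ± 0.05), as did H2-Ab1 (0.33 ± 0.06) and H2-Aa, from 271, 269, 516, 675 and 501 CPM to 334, 272, 588, 810 and 543 (0.18 ± 0.05). H2-Eb1 was at 0.14 ± 0.05. On library size alone neither H2-Aa (0.02, adjusted p = 0.747) nor H2-Eb1 (-0.01) was called, nor were they with surrogate variables in place of the block (0.06 and 0.04). The classes of H2-Aa and H2-Eb1 were lost without mouse B or C and without mouse A or D. Without the mouse as a block, the net changes of Cd74 (0.52), H2-Ab1 (0.34), H2-Aa (0.19) and H2-Eb1 (0.15) were not called. Of 20 dendritic cell maturation genes, none was higher and 19 were lower (median -1.10), against 36.8% of all genes called lower. Pdcd1lg2, which encodes PD-L2 (-3.72 ± 0.09), the actin-bundling Fscn1 (-2.32 ± 0.16), the PD-L1 gene Cd274 (-1.01 ± 0.09) and the costimulatory gene Cd86 (-0.82 ± 0.08) were among them. Cd83 was the one not called: 63.7, 59, 190, 185 and 196 CPM at baseline and 45, 49.3, 233, 214 and 234 with both, which was -0.38 in mice A and B and 0.30 in mice C, D and E.

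Of 28 interferon-stimulated genes 1 was higher and 22 lower (median -1.37), against the 36.8% of all genes that were lower. Mx1, the antiviral GTPase, fell by 2.05 without overlap. Rsad2, which encodes viperin, had opposed effects of -1.87 and 1.79 and a net change of -0.19 with an interval from -0.85 to 0.46, too wide to place it at baseline. Scavenger and engulfment receptors (21 tested) had 7 higher and 11 lower genes (median -0.17), with the β-glucan receptor gene Clec7a at -1.21 ± 0.10 and the TAM receptor gene Tyro3 cancelled (-0.72 and 1.01, net 0.04 ± 0.09). Integrins and adhesion genes (23 tested) had 6 higher and 10 lower (median -0.01), the selectin ligand gene Selplg being at -1.32 ± 0.08. For both lists the shares of all genes were 35.3% higher and 36.8% lower.

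Of 20 NRF2 antioxidant genes, 14 were higher and 1 lower (median 0.33), or 10 and 3 on library size alone (median 0.17), against 35.3% of all genes called higher. Of the 20, 8 were adding higher genes, where 6.67% of all genes were. Hmox1, which degrades haem, stood at 122, 119, 73, 91.2 and 75.5 CPM at baseline and at 504, 453, 655, 548 and 458 with both (net 2.45 ± 0.14), close to IC alone (421 to 550 CPM). Srxn1 (2.06 ± 0.10) and the ferritin light chain gene Ftl1 (1.47 ± 0.08) rose without overlap. The 2 subunits of the enzyme of glutathione synthesis differed: Gclc rose with each agent (net 1.66 ± 0.05), whereas Gclm was lowered by iBET (-0.30) and raised by IC (1.10) to a net 0.35 ± 0.09. Gclm was at 0.65 in mice C, D and E and at -0.0045 in mice A and B, in which the baseline library of mouse A was high. Gsr, glutathione reductase, cancelled (net -0.03 ± 0.06).

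Of 23 glycolysis genes 14 were higher and 7 lower (median 0.29). Among all genes 35.3% were higher and 36.8% lower, for comparison with this list and those of lysosome and heat shock genes. Gapdh (0.74 ± 0.10), Pkm (0.69 ± 0.07) and the glucose transporter gene Slc2a1 (0.74 ± 0.07) were adding, and Hk2 kept its rise with IC (0.80 ± 0.06). Of 33 lysosome genes 27 were higher and 2 lower (median 0.24), with 14 higher and 4 lower on library size alone. The protease gene Ctsb (0.79 ± 0.06) and the sialidase gene Neu1 (1.15 ± 0.06) were adding, while Tfeb, a transcription factor of lysosomal genes, was iBET-dominant and lower (-0.92 ± 0.08). Of 19 heat shock chaperone genes 14 were higher and 2 lower (median 0.29), with 8 and 3 on library size alone. Hspa1b (2.90 ± 0.28) moved like Hspa1a, and Hsp90aa1 was at 1.30 ± 0.09, its class lost without mouse C or D.

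ATF4 response genes (25 tested) divided into 7 higher and 6 lower (median -0.03), or 4 higher and 14 lower on library size alone. For this list and the next 2, the shares of all genes were 35.3% higher and 36.8% lower. Chac1, which degrades glutathione, was higher (1.56 ± 0.17, and 2.34 ± 0.17 with iBET alone), the pseudokinase gene Trib3 was lower (-1.10 ± 0.08), and Slc7a5, a leucine transporter gene, cancelled (0.43 and -0.53, net -0.12 ± 0.09), being called lower without mouse B (-0.20). Sterol and fatty acid synthesis genes (28 tested) divided into 11 higher and 12 lower (median 0.07, or -0.09 on library size alone), with squalene epoxidase, Sqle, at 1.10 ± 0.05 and Scd2 at -1.33 ± 0.05. Of 10 BET and P-TEFb genes 6 were higher and 1 lower (median 0.40). Brd2 rose from 203, 206, 246, 245 and 249 CPM to 1044, 1169, 1112, 956 and 1043 (2.21 ± 0.07), and Hexim1, a P-TEFb inhibitor, rose by 2.43 ± 0.07, with a small opposed IC effect that was not called without mouse A, B or D.

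Of 30 cell cycle genes 2 were higher and 21 lower, where 36.8% of all genes were lower. The median was -0.54, against -0.16 for iBET alone and -0.14 for IC alone. Cdc20, the activator of the anaphase-promoting complex, went from 20.6, 19.3, 17.2, 15.7 and 14.9 CPM to 7.14, 8.14, 5.33, 5.58 and 4.67 (-1.51 ± 0.08), without overlap, and its departure from the sum (-0.39) was not called (adjusted p = 0.143). Birc5, survivin, fell by 0.69, and the DNA polymerase clamp gene Pcna rose by 0.58. Adding lower genes made up 8 of the 30, where 8.47% of all genes were in that class.

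Of the markers of other cell types, neutrophil genes had 3 higher and 3 lower of 9 tested and mast cell, basophil or eosinophil genes 2 higher and 3 lower of 6. No erythroid gene was called of 2 tested, and no T or NK cell or B cell gene passed the filter. Macrophage or monocyte genes had 4 higher and 5 lower of 10, with Csf1r at -0.71 ± 0.05. Dendritic cell genes had 4 higher and 5 lower of 9, and Flt3, a receptor of their precursors, was at -3.08 ± 0.21. Mpo, a myeloid precursor enzyme, was called higher at a very low level, from 0 to 0.119 CPM at baseline to 0.407 to 0.833 CPM. The part of a changed cell makeup in the results above was not tested.

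**Figure D5:**
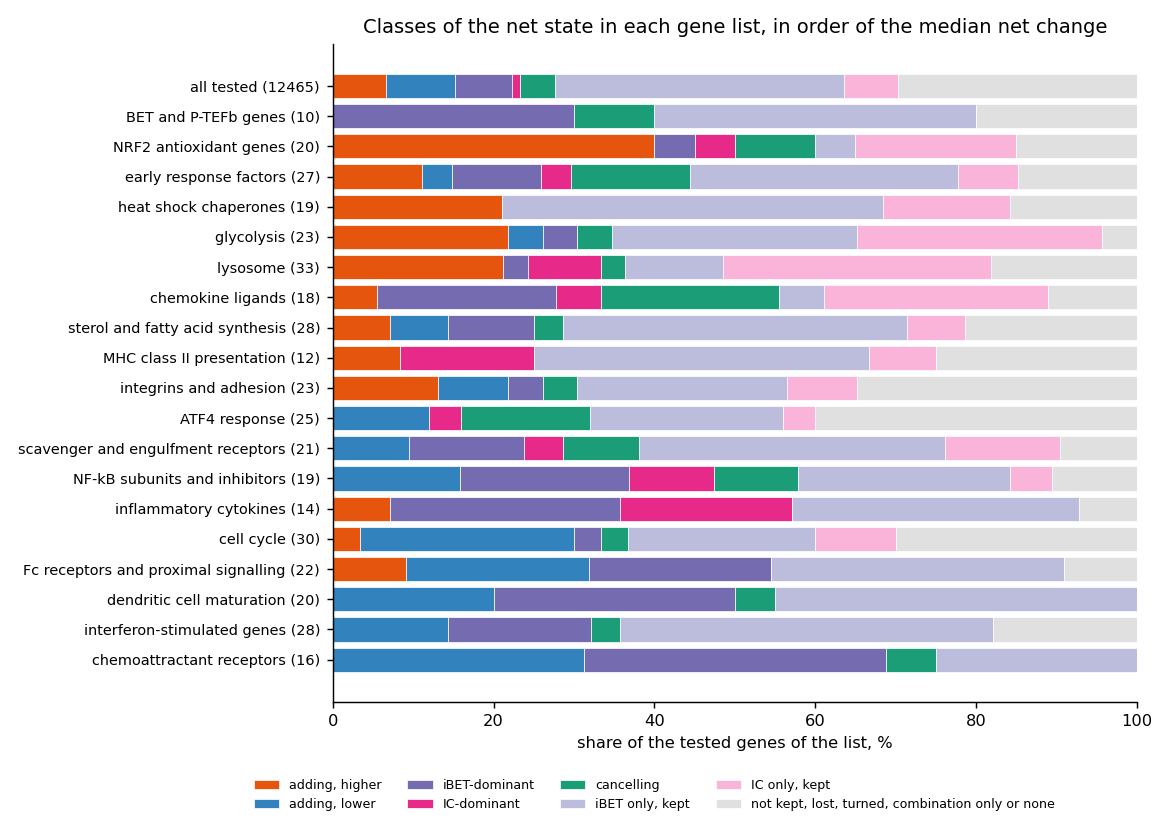
Share of the tested genes of each of 19 gene lists (number tested in brackets) in each class, as stacked horizontal bars that add up to 100%, below the bar of all 12465 genes and in order of the median net change. Of the 20 NRF2 genes 8 are adding higher, chemokine ligands have 4 of 18 cancelling, and chemoattractant receptors and maturation genes are made up of adding lower, iBET-dominant and iBET only genes but for 1 cancelling gene each.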

How the data were processed

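Bulk RNA-seq of BMDCs was taken from 20 libraries, 5 mice in each of 4 groups. Per the labels and the methods, the authors prepared total RNA with a Takara SMARTer pico input kit, trimmed reads with Trim Galore, aligned them to mm10 with HISAT2, counted them with featureCounts and deposited raw counts for each gene. The second deposited table, of unit signal, was made by the authors by scaling those counts with 1 size factor per library. Tool versions, the annotation and the strand setting are not given in the sources used here, so genes that overlap or have close copies (Ccl3 and Ccl4, Hspa1a and Hspa1b, Mt1 and Mt2, H2 genes) may share reads.

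The 10 libraries of iBET IC and DMSO Ova were compared in one fit of all 20 libraries with edgeR 4.0.16 in R 4.3.3 (filterByExpr, TMM, quasi-likelihood test), with the mouse as a block and Benjamini-Hochberg adjustment over the 12465 genes tested. A gene was called at an adjusted p under 0.05. Errors of log2 fold changes are standard errors. The labels give each mouse a library in every group, and the deviations of the DMSO Ova and iBET IC libraries of a mouse from their group means had correlations between 0.428 and 0.63, each highest for the same mouse. CPM values use TMM-scaled library sizes. Libraries held 16447491 counts or more. Levels near or under 1 CPM rest on few reads, so their counting error can be as large as the spread between mice.

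The members, gene lists and rules were chosen with earlier results of these data known. From genes with a mean above 100 counts, no clone name and the same direction in 5 of 5 mice for each called effect, the 6 genes with the largest smaller single effect were taken from each class (near-baseline genes only for cancelling ones), with the 6 largest net rises and falls, the 4 largest combination-only and the 4 largest IC-only lost genes. Members of the gene lists were named as well, without those limits on counts and mice. Alternatives were no replicate block, DESeq2 1.42.0, DESeq2 size factors, library size only, no filter, 3 surrogate variables from sva 3.50.0, limma 3.58.1 on the log2 of the deposited signal with a pseudocount of 1, each mouse left out, mice A and B or C, D and E only, a log2 fold change of at least 1, only the 10 libraries, and either single effect taken in the presence of the other agent. The classification was also run on simulated data, and no result above rests on that run. Of the tested symbols, 11806 were found in RefSeq (GRCm38.p6) directly and 608 through a synonym. The figures were drawn with matplotlib. Some genes that this rule takes are not reported here.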

Additional observations from a re-analysis of the deposited data

Results flagged for a closer look

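A single library stood apart from the other 4 of its group (Dixon's test) in 13 of 236 groups of the named genes tested, a rate close to the 1 in 20 that chance gives. In 9 of them the library was DMSO Ova of mouse A, which was high. It stood at 694.3 CPM for Slc7a11 (others 376 to 465.8), 52.58 for Ccl3 (14.53 to 24.02), 20.46 for Il1f9 (6.199 to 9.541), 29.59 for Irg1 (11.23 to 15.02), 2.227 for Cxcl1 (0.4617 to 0.9485), 27.56 for Fpr1 (11.17 to 15.9), 112.5 for Srxn1 (72.94 to 83.83), 96.11 for Gclm (49.34 to 58.28) and 16.31 for Tyro3 (7.565 to 8.721). The DMSO Ova library of mouse B was low for Met (33.67 CPM, others 48.78 to 50.24) and Maff (4.091, others 5.951 to 6.64). The iBET IC library of mouse C was high for Hbegf (20.75 CPM, others 6.365 to 9.961) and Maff (15.47, others 6.772 to 8.143). Without mouse A the net changes of the 9 genes named first stayed on the same side of the threshold.

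For 10 named genes iBET acted to a different extent on IC-stimulated and on Ova-treated cells by the interaction term in edgeR with Benjamini-Hochberg adjustment, which is the departure from the sum given above. It was larger, or less negative, with IC by 0.97 for Abhd15 (adjusted p = 0.000442) and 1.22 for Ccr2 (adjusted p = 0.0144) on the log2 scale. It was smaller, or more negative, with a difference of -0.67 for Met (adjusted p = 0.0106), -1.26 for Lrp8 (adjusted p = 0.000399), -0.48 for Ets2 (adjusted p = 0.0357), -0.5 for Txnrd1 (adjusted p = 0.00721), -0.43 for Slc3a2 (adjusted p = 0.0451), -0.64 for Il1rn (adjusted p = 0.0234), -1.04 for Klf10 (adjusted p = 8.73e-05) and -0.34 for Scd2 (adjusted p = 0.0144).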

How the results depend on the processing

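The net count stayed within 1.5 times 8977 under each alternative but the fold threshold, and 1710 of 1769 alternative values of the named genes kept their direction and call, with 37 losing it, 18 gaining it and 4 turning. With no replicate block IC alone called 2531 genes, departures were 5, and there were 318 cancelling, 388 iBET-dominant, 37 IC-dominant and 888 adding genes, and 14 named genes lost their net call, among them Ccl4 (-0.65), Met (-0.24), Ccl22 (-0.45), Ccl17 (0.45), Ckb (0.65) and Gclm (0.32). Departures were 183 with DESeq2 and 50 with surrogate variables. In mice A and B only, IC alone called 1265, with 142 cancelling, 196 iBET-dominant, 29 IC-dominant and 450 adding genes and 0 departures in edgeR. In mice C, D and E only, departures were 65 and IC-dominant genes 69. With a log2 fold change of at least 1, net, iBET and IC calls were 2049, 1905 and 214, departures 9, and cancelling, iBET-dominant, IC-dominant and adding genes 32, 24, 1 and 42. With the iBET effect taken with IC there were 192 IC-dominant genes, and with the IC effect taken with iBET 1243 adding genes. Leaving out 1 mouse gave 14 (mouse D) to 61 departures, 568 (mouse C) to 816 iBET-dominant, 70 (mouse C) to 103 IC-dominant and 1229 (mouse C) to 1807 adding genes. Net changes that turned were H2-Eb1 on library size only (-0.0144), Cd83 (-0.3754) and Gclm (-0.0045) in mice A and B, and Ccrl2 (0.3605) in mice C, D and E. On library size only the cancelling genes Ccl9, Tnip1, Gsr, Myc and Slc7a5 were also called lower. The cause was not tested, beyond the smaller number of mice in the subsets. Depth limits the levels near or under 1 CPM, which rest on few reads.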
